A study of Mus musculus with 3 samples.

Results

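Lysosomal cathepsins, the proteases that degrade proteins delivered to endosomes and lysosomes, were followed in the mouse model of TBLR1-RARα (TR) leukemia. The 10 genes Ctsa, Ctsb, Ctsd, Ctse, Ctsf, Ctsh, Ctsl, Ctso, Ctss and Ctsz were chosen by name, without the neutrophil granule protease cathepsin G, and all 10 were found among the 16742 genes listed in any library. RNA-seq had been carried out on 3 libraries, 1 per condition, each from 3 pooled mice that the labels give as C57BL/6 and 6 to 8 weeks old. The control library came from lin- bone marrow cells of wild type mice, which are the cells left after depletion of cells with mature lineage markers. The TR1 and TR9 libraries came from GFP+ bone marrow cells of TBLR1-RARa mice, sorted at the third generation of serial transplantation of the leukemias of mouse NO.1 and mouse NO.9. In those cells a retroviral MSCV vector expressed TR and GFP from one transcript, after transduction of C57BL/6 lin- cells and transfer into irradiated recipients. Control cells carried no vector and were isolated by depletion rather than by a GFP sort, so leukemia and isolation method cannot be told apart, and each TR library stands for the descent of 1 primary mouse.

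Cathepsins are made as inactive precursors, carried to lysosomes mostly by mannose 6-phosphate receptors, and activated at acid pH. Ctsb, Ctsf, Ctsh, Ctsl, Ctso, Ctss and Ctsz encode cysteine proteases of the papain family, Ctsd and Ctse encode aspartic proteases, and Ctsa encodes a serine carboxypeptidase that also protects lysosomal galactosidase and neuraminidase. In the marrow these enzymes serve protein turnover in all cells, and Ctss and Ctsl also act on the invariant chain during antigen presentation. Many lysosomal genes carry the palindromic E-box bound by TFEB, the transcription factor that coordinates lysosome formation.

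Expected counts, the reads that RSEM assigns to each gene, summed to between 5129662 and 5571409 per library. FPKM relates the fragments of a gene to its transcript length and to the library total, so it may be compared between genes. With no replicate of any condition, every interval given here covers counting error at 95% only, and no difference has a replicate check. Rara had 58.88, 1167.89 and 358.74 expected counts in the control, TR1 and TR9 libraries, the highest level being in TR1 and the lowest in control. Reads of the vector and of the mouse gene were not separated. Tbl1xr1, the gene of the other fusion partner, had log2 ratios of only 0.45 in TR1 and 0.30 in TR9. A gene was called higher or lower in a comparison when the false discovery rate of a Poisson test on the counts of both libraries was at most 0.001 and the log2 ratio of FPKM was at least 1 in size, the thresholds of the study's methods. Of all genes tested, 8.09% were called higher and 13.0% lower in TR1 against control, and 9.37% and 10.8% in TR9. Of 8 granulocyte precursor genes such as Elane, 8 were called higher in TR1 and, all but Mpo, 7 in TR9. Of 11 late neutrophil genes, 11 were called higher in TR1 and 7 in TR9. Their sums were 114 FPKM in control, 23258 in TR1 and 8975 in TR9. In TR9 against TR1, 2 of these 11 were called higher and 7 lower, beside 4.34% and 2.31% of all genes. Of 10 stem and progenitor genes, 2 were called higher and 7 lower in TR1, and 1 higher and 5 lower in TR9. Among them, Cd34 went from 75.83 FPKM in control to 5.80 and 4.34, and Ly6a from 9.49 to 26.90 and 87.64. The T and NK list summed to 4.99 FPKM in control and less in the TR libraries. The B lineage list summed to 12.7 FPKM in control, 16.6 in TR1 and 200 in TR9, where Igll1 alone was at 194.53.

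The genes lie on separate chromosomes for the most part. In GRCm38 (GENCODE M21), Ctse is on chromosome 1 from 131638306 to 131675505, Ctsd on chromosome 7 from 142375911 to 142388038 and Ctsb on chromosome 14 from 63122462 to 63145923. Ctsa (164832873 to 164841032) and Ctsz (174427493 to 174439039) share chromosome 2. Ctso (81932601 to 81956725) and Ctss (95526786 to 95556403) share chromosome 3. Ctsh is on chromosome 9 from 90054152 to 90076089, Ctsl on chromosome 13 from 64359337 to 64370890 and Ctsf on chromosome 19 from 4855130 to 4860918. Exons of Ctsd overlap those of Gm49369 and exons of Ctsl those of Gm49230 on the same strand, and Ctsl also overlaps Gm47123 on the other strand. Exons of Ctsa overlap those of Neurl2 and Pltp on the opposite strand, exons of Ctsb those of Fdft1, and exons of Ctsz those of Nelfcd. The strandedness of the libraries is not given in the sources used here, so reads of these overlaps cannot be assigned by strand. Of the partners with values in the files, Nelfcd had the most expected counts, with 373 in control, 186 in TR1 and 212 in TR9.

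Promoter sequences from RefSeq (GRCm38.p6), from 250 bases before to 50 after a start site, were at hand for 8 promoters of 7 of the genes, those of Ctsa, Ctsd, Ctsf, Ctsl, Ctso, Ctss and Ctsz. They are shown because the E-box core CACGTG, which is its own reverse complement, was in 4 of the 8 promoters, against 7.15% of all 32851 promoters. The longer TCACGTGA, which holds that core and resembles the site bound by TFEB, was in 2 of the 8, against 0.974% of all. In the stretches below, read 5′ to 3′ on the strand of the gene, capitals mark CACGTG.
Ctsa, chr2:164833744-164833800, plus strand: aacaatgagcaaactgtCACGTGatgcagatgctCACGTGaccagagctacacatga
Ctsd, chr7:142387903-142387942, minus strand: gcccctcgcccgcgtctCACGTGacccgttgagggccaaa
Ctsl, chr13:64370734-64370770, minus strand: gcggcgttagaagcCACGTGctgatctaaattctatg
Ctsf, chr19:4855069-4855108, plus strand: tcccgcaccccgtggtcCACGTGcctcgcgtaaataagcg

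The Ctsa stretch belongs to the second of its start sites and holds 2 copies of the core, each within TCACGTGA when read with its neighboring bases, and Ctsd has a further copy 245 bases before its start site. These start sites are those of RefSeq. By the GENCODE spans above, the printed stretches of Ctsa, Ctsd and Ctsl lie within the annotated gene. That of Ctsf lies before its gene. A match is only a string of letters, and no binding was measured. Ctss had instead the string GAGGAAGT, which resembles the site of the myeloid factor PU.1 and occurred in 3.20% of all promoters on either strand. It lies at the start site of Ctss on the opposite strand, in capitals below.
Ctss, chr3:95526767-95526808, plus strand: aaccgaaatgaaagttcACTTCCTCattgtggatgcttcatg

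A direct repeat of AGGTCA with a spacing of 5 bases, a form of site bound by retinoic acid receptors, was in none of the 8 promoters and in 0.00913% of all promoters on either strand. With exact matches in only 3 of all 32851 promoters, its absence from 8 says nothing about such sites in these genes. The GC box GGGCGG was in 5 of the 8, against 35.7% of all. The 4 genes with an E-box core differed in their values: Ctsf was called lower in TR1, and none of Ctsa, Ctsd and Ctsl was called in any comparison when libraries were scaled by their totals.

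In control lin- cells, the aspartic proteases were the most abundant cathepsin messages. Ctse was at 216.91 FPKM (95% exact Poisson interval 209 to 226) and Ctsd, the main lysosomal aspartic protease, at 202.86 (194 to 212), and these intervals overlapped. Ctsz, a carboxypeptidase also called cathepsin X, followed at 100.91 FPKM, Ctsb at 52.29 and Ctsa at 41.16. Ctss at 26.14 and Ctsh, an aminopeptidase, at 25.01 did not differ beyond counting error. Ctsl was at 9.82 FPKM, and Ctso at 3.83 and Ctsf at 2.40 closed the order with overlapping intervals. Ctse and Ctsd were at or above the level of 98.3% and 98.2% of the genes listed in control, and Ctsf of 34.0%.

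The order in the leukemias differed from that in control chiefly in the place of Ctse, which was the first of the 10 genes in control and the ninth in TR1 and in TR9. In TR1, Ctsd at 146.27 FPKM and Ctsz at 141.31 led with overlapping intervals, followed by Ctsa at 64.40, Ctsb at 29.96, Ctsh at 16.38 and Ctsl at 13.65. In TR9, Ctsd led alone at 211.06 FPKM (202 to 220), followed by Ctsz at 93.16, Ctsa at 47.32 and Ctsb at 26.01. Of the 9 neighboring pairs in each order, the intervals overlapped in 3 pairs in control, in 4 pairs in TR1 and in 3 pairs in TR9.

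**Figure D1:**
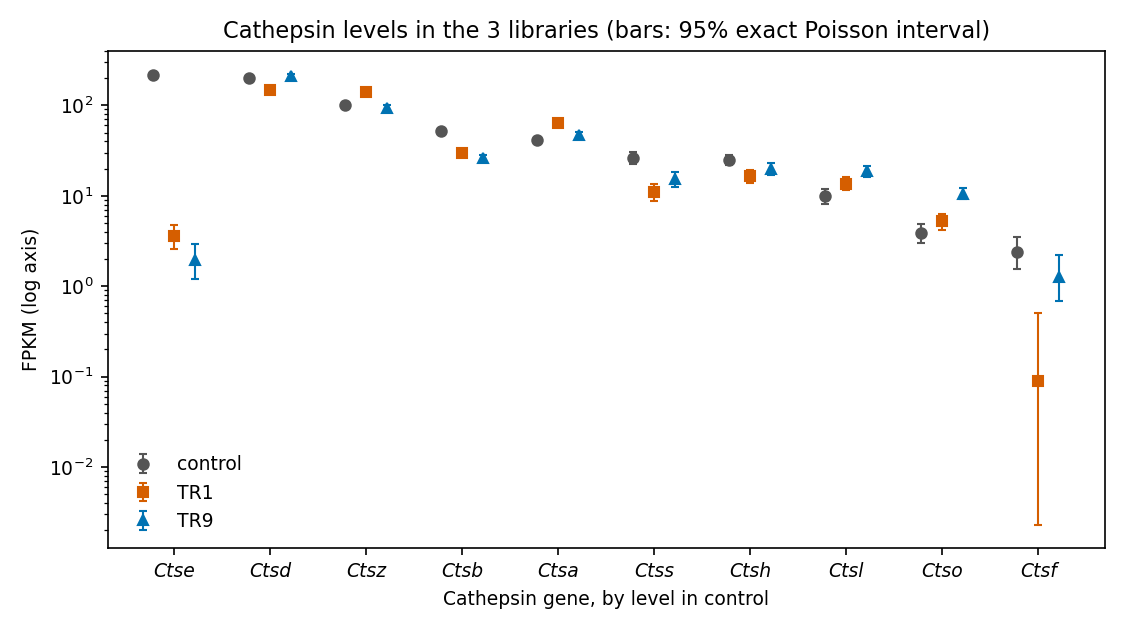
FPKM of the 10 cathepsin genes on a log axis in control (circles), TR1 (squares) and TR9 (triangles), 1 library each, with 95% exact Poisson intervals that cover counting error only. Ctse is at 216.91 in control against 3.55 and 1.93 in the TR libraries, and Ctsf rests on a single count in TR1.

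The summed FPKM of the 10 genes was 681 in control against 432 in TR1 and 445 in TR9. Without Ctse, the sum over the other 9 genes was 464, 428 and 443. Ctse alone made up 31.8% of the sum in control, 0.822% in TR1 and 0.434% in TR9. Within a library these shares do not depend on how libraries are scaled to each other. The cysteine proteases made up 32.3% of the sum in control but 50.4% in TR1 and 41.5% in TR9. Their summed FPKM did not rise with that share: it was 220.4 for the control library, against 217.52 for TR1 and 184.79 for TR9. Ctsd took 29.8% in control, 33.9% in TR1 but 47.4% in TR9, and Ctsz took 14.8%, 32.7% and 20.9%. The serine carboxypeptidase gene Ctsa took 6.04%, 14.9% and 10.6%. As the TR sums held little Ctse, the share of another gene could rise there without a higher level. Ctsd made up 47.4% of the TR9 sum at 211.06 FPKM, against 29.8% at 202.86 FPKM for control, and these levels had overlapping intervals. Its share of the TR1 sum was 33.9% at a lower level, 146.27 FPKM. By contrast, the level of Ctsa was above control for both leukemias, and that of Ctsz for TR1 only. The pool of cathepsin messages was therefore led by Ctse and Ctsd in control, by Ctsd and Ctsz in TR1 and by Ctsd in TR9. These shares have no replicate check.

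**Figure D2:**
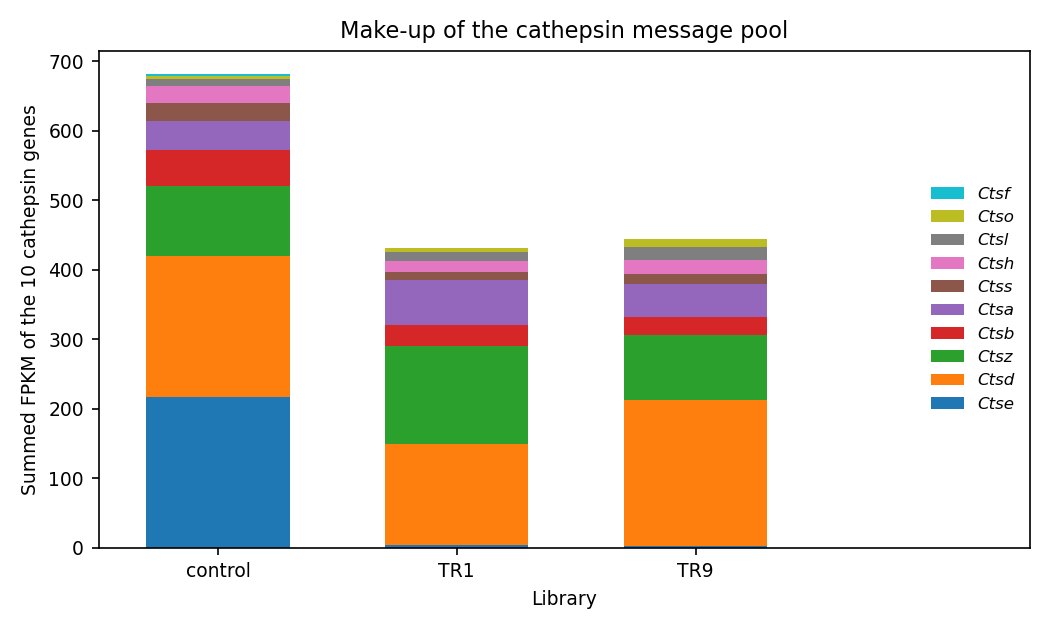
Summed FPKM of the 10 cathepsin genes in control, TR1 and TR9, stacked by gene. The sums are 681, 432 and 445, and the segment of Ctse at the base is 31.8% of the column in control and under 1% in the TR columns.

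The comparison of each leukemia with lin- cells asked which cathepsins differ between TR blasts and the marrow cells from which such leukemias are raised. In TR1, Ctse, Ctsf and Ctss were called lower and no cathepsin was called higher. In TR9, Ctse and Ctsb were called lower and Ctso was called higher. So 3 of 10 genes were called in each comparison, against 21.1% of the 16282 genes tested in TR1 and 20.2% of the 16303 tested in TR9, a difference of 1 gene in 10 from the share of all genes. In TR1, 13.0% of all genes were called lower and 8.09% higher. In TR9, 10.8% were called lower and 9.37% higher. By the fold alone, with no test, the same genes passed: 0 higher and 3 lower in TR1, beside 17.2% and 26.4% of all genes, and 1 higher and 2 lower in TR9, beside 19.6% and 23.1%. Both comparisons share the control library. The median log2 ratio of the 10 genes was -0.54 in TR1 and -0.22 in TR9, beside -0.29 and -0.12 for all genes.

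Ctse, cathepsin E, an endosomal aspartic protease that is also long known from the red cell membrane, differed most. It had 2522, 42 and 21 expected counts in the control, TR1 and TR9 libraries. The TR libraries are both far below control, and their ratio to each other is small beside that gap. The level of Ctse in TR1 was 61.1-fold below control, a log2 ratio of -5.93 (-6.41 to -5.49). In TR9 it was 112-fold below, a log2 ratio of -6.81 (-7.51 to -6.20). Only 3.77% of all genes had a log2 ratio as low as that of Ctse in TR1, and 2.09% in TR9. Its call held under all 13 alternative settings tried in both comparisons, including a test in which replicates were assumed to vary with a coefficient of 0.4, where Ctse was the only one of the 10 genes called.

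Lists of the erythroid, megakaryocyte, mast cell and stroma lineages were mostly lower as well, whereas the B lineage sum given above was not. Of the 16 erythroid genes sought, 15 were listed, and all 15 were called lower in TR1 and in TR9, with a summed level of 3281 FPKM in control against 44.9 in TR1 and 47.2 in TR9. Among the erythroid genes at 0 were Epor, Hba-a2, Hbb-bs, Tspo2, Slc4a1 and Alas2 in TR1, and Hba-a2, Tspo2 and Alas2 in TR9. All 10 megakaryocyte and platelet genes were called lower in each, with a sum of 1019 FPKM in control against 5.0 and 3.80 in TR1 and TR9, and 7 of 8 mast cell, basophil and eosinophil genes were called lower in each, with sums of 1613, 75.2 and 87.9 FPKM. Of 10 stroma genes 7 were called lower and 1 higher in each, with sums of 729, 9.80 and 15.1 FPKM. Their part in the ratio of Ctse was not tested, and in bulk RNA fewer cells of a type and less RNA per cell cannot be told apart. Among 10378 other named genes with at least 10 expected counts in every library, the pairs of log2 ratios nearest to that of Ctse were those of Sparc, at a distance of 0.318, and Itga2b, the platelet integrin chain, at 0.553. That minimum kept out erythroid and platelet genes with fewer than 10 counts in TR1 and TR9, such as Klf1, Car1 and Pf4. The search could therefore not return them. This search over 3 libraries was added after the values of Ctse were seen.

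Among the cysteine proteases, Ctss, Ctsb and Ctsh, the last given further below, were lower beyond counting error in both TR libraries than in control. Ctss, cathepsin S, the enzyme that trims the invariant chain in antigen-presenting cells, had 195, 83 and 106 expected counts in the control, TR1 and TR9 libraries. Control is the highest library and TR1 the lowest. The log2 ratio of Ctss was -1.26 (-1.65 to -0.88) in TR1, where it was called, and -0.78 (-1.14 to -0.44) in TR9, where it was not. The call of Ctss in TR1 was lost at an assumed coefficient of variation of 0.2 or 0.4 and at a log2 ratio of at least 2. With TMM and median-of-ratios scaling it was kept, but at log2 ratios of -1.01 and -1.02, on the threshold. Ctsb, cathepsin B, an abundant protease with both endopeptidase and carboxypeptidase activity, had 1377, 803.02 and 641 counts in these libraries. The TR libraries lie close to each other, below control. The log2 ratio of Ctsb was -0.80 (-0.93 to -0.68) in TR1 and -1.01 (-1.14 to -0.87) in TR9, so it stood on the threshold, and its call in TR9 was lost under 3 of the 4 other scalings, where the log2 ratio was -0.90 to -0.94.

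Macrophage and dendritic cell genes were called lower more often than higher. Of 20 macrophage and monocyte genes, 13 were called lower and 3 higher in TR1, and 14 lower and 1 higher in TR9. Their summed level was 228 FPKM in control, 250 in TR1 and 364 in TR9, of which Vcam1 alone, which rose in both leukemias, held 25.11, 164.41 and 291.13. At 0 were C1qc, Marco and Timd4 in TR1 and Marco and Timd4 in TR9. Of 13 dendritic cell genes, 7 were called lower and 1, Flt3, higher in TR1, and 6 lower and 0 higher in TR9, with sums of 129 FPKM in control, 43.1 in TR1 and 56.4 in TR9. H2-Aa, H2-Ab1, Ciita, Siglech, Cd209a and Zbtb46 were at 0 in TR1, and Cd209a and Zbtb46 in TR9. Their part in the values of Ctss and Ctsb was not tested.

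Ctsf, cathepsin F, which can take the place of cathepsin S on the invariant chain in macrophages, was scarce in every library. It had 26, 1 and 13 expected counts in the control, TR1 and TR9 libraries. The call in TR1 rests on that single count, with a log2 ratio of -4.74 and a wide interval from -10.09 to -2.13. In TR9 the log2 ratio of Ctsf was -0.91 with an interval from -1.99 to 0.11 that holds 0.

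Beyond counting error, Ctsl was higher in both TR libraries than in control, and Ctso in TR9 only. Ctsa in both and Ctsz in TR1, given further below, were also higher than control beyond counting error. Ctso, cathepsin O, a little studied member of the papain family, had 73, 101 and 189 expected counts in the control, TR1 and TR9 libraries. TR9 is the highest library, and control and TR1 lie near each other. The log2 ratio of Ctso was 1.47 (1.07 to 1.88) in TR9, where it was called, and 0.44 (-0.01 to 0.90) in TR1. Ctsl, cathepsin L, a broad endopeptidase, had 106, 150 and 189 counts in these libraries. Its log2 ratio was 0.48 (0.11 to 0.85) in TR1 and 0.93 (0.58 to 1.29) in TR9, just outside the threshold that Ctsb just passed. With edgeR's TMM scaling, which sets the bulk of the genes level, the log2 ratio of Ctsl in TR9 was 1.04, and it was called.

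**Figure D3:**
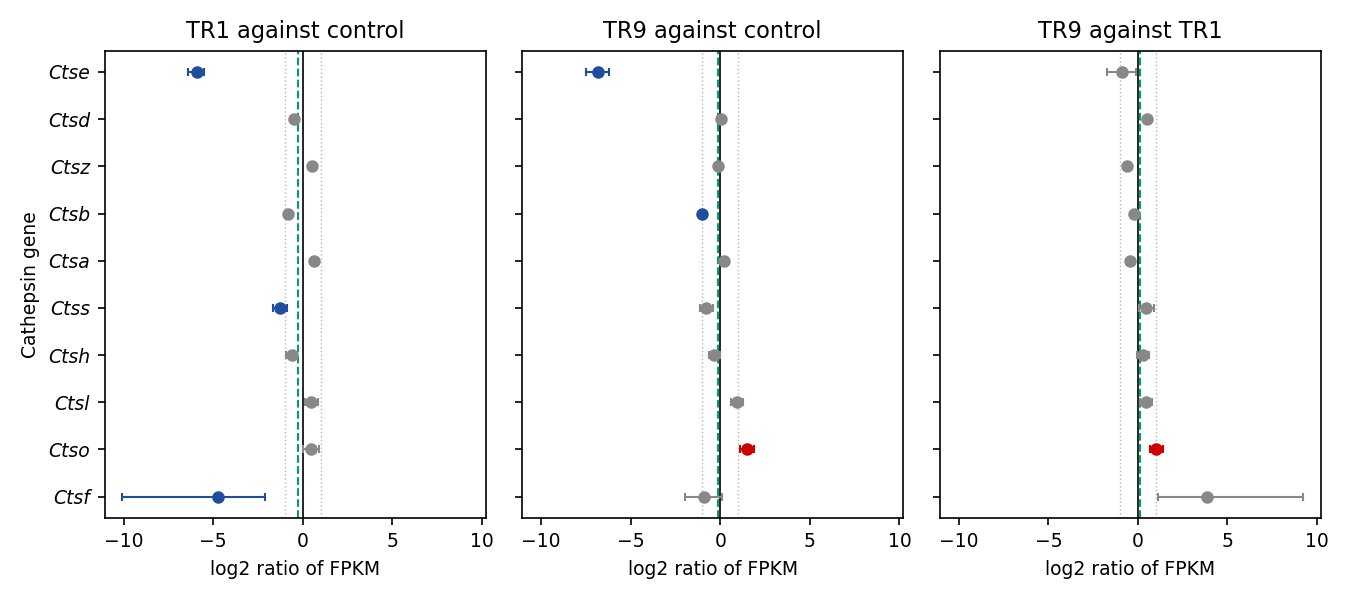
Log2 ratio of FPKM of each cathepsin gene in the 3 comparisons, with 95% exact conditional intervals for counting error. Blue points were called lower, red points higher and grey points were not called. Dotted lines mark a log2 ratio of 1 in size and the green dashed line is the median of all genes. Ctse lies near -6 to -7 against control. Ctso is the only gene in red, in TR9 against control and in TR9 against TR1.

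The remaining genes stayed within a log2 ratio of 1 of control, and none was called. Ctsd had 2199, 1614 and 2141 expected counts in the control, TR1 and TR9 libraries. The log2 ratio of Ctsd was -0.47 (-0.57 to -0.38) in TR1 and 0.06 (-0.03 to 0.14) in TR9, and the latter turned to -0.052 with a TPM-like scaling, in which all libraries have equal summed FPKM. Ctsz had 764, 1089 and 660 counts, which places TR1 above both other libraries. Its log2 ratio was 0.49 (0.35 to 0.62) in TR1 and -0.12 (-0.27 to 0.04) in TR9.

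Ctsa had 756.05, 1198.16 and 808.33 expected counts in control, TR1 and TR9. These are not whole, which RSEM gives where reads match several genes. The log2 ratio of Ctsa was 0.65 (0.51 to 0.78) in TR1 and 0.20 (0.06 to 0.35) in TR9. Ctsh had 222, 148 and 165 counts, which places both TR libraries below control. Its log2 ratio was -0.61 (-0.92 to -0.30) in TR1 and -0.33 (-0.63 to -0.04) in TR9.

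The TR leukemias were then compared with each other. Only Ctso was called, higher in TR9 than in TR1 with a log2 ratio of 1.03 (0.67 to 1.39), beside 6.65% of the 15706 genes tested, 4.34% higher and 2.31% lower. By the fold alone, Ctso and Ctsf were higher and 0 cathepsins lower, beside 16.9% and 11.2% of all genes. That value also stood on the threshold, and it was 0.88 to 0.96 and not called under 3 of the 4 other scalings. Ctsd was higher in TR9 by 0.53 (0.44 to 0.62), Ctss by 0.47 (0.05 to 0.91) and Ctsl by 0.45 (0.14 to 0.77). Ctsz was lower in TR9 with a log2 ratio of -0.60 (-0.74 to -0.46), Ctsa with -0.44 (-0.58 to -0.32) and Ctsb with -0.20 (-0.36 to -0.05). Ctse was lower with -0.88 (-1.71 to -0.09) at 21 against 42 counts. For Ctsh the interval held 0, with a log2 ratio of 0.28 (-0.05 to 0.61). For Ctsf, at 13 counts against 1, the log2 ratio was 3.83 (1.10 to 9.24), and it was not called at a false discovery rate of 0.001. The median of the 10 genes was 0.37, beside 0.13 for all genes.

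Other cathepsin genes, which were left out of the 10, give the family its frame. Ctsg, the granule protease cathepsin G, rose from 2717 expected counts to 14320 in TR1 and 24498 in TR9, with log2 ratios of 2.37 (2.31 to 2.43) and 3.27 (3.21 to 3.33). Ctsc, the dipeptidyl peptidase that activates such granule proteases, fell from 313 counts to 77 and 119, with log2 ratios of -2.05 (-2.43 to -1.68) and -1.30 (-1.62 to -0.99).

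Of 13 protease inhibitors sought, cystatins and their relatives outside the stefin A family and 3 serpins, 7 were listed. The serpins Serpinb1a and Serpinb6a are known mainly as inhibitors of serine proteases. In TR1 3 were called higher and 0 lower, and in TR9 4 higher and 1 lower. The share called was 42.9% in TR1 and 71.4% in TR9 of only 7 genes, beside 21.1% and 20.2% of all genes. Cst7, cystatin F, an inhibitor carried into lysosomes of immune cells, rose from 73.02 FPKM to 472.66 in TR1 and 392.76 in TR9, with log2 ratios of 2.69 (2.54 to 2.85) and 2.43 (2.27 to 2.59). Serpinb1a rose from 49.75 FPKM to 367.79 and 207.31. Cst3, cystatin C, was not called and had a pair of log2 ratios close to that of Ctsz, at 0.45 in TR1 and -0.10 in TR9, at a distance of 0.0349. Only Parl lay nearer to Ctsz among 6598 other named genes with at least 100 expected counts in every library. By the same measure over these 3 libraries, the nearest genes included Tomm40 and Mpp6 for Ctsb, Akap8l for Ctsd, Rplp0 and Prelid1 for Ctsa, Sde2 and Hacd1 for Ctsh, and Dctn1 and Rfxap for Ctsl, all within a distance of 0.0258.

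Calls among the genes that deliver and activate cathepsins went both ways. Of 16 genes of sorting and processing, 1 was called higher and 4 lower in TR1, and 1 higher and 2 lower in TR9. The share called was 31.25% in TR1 and 18.75% in TR9, beside 21.1% and 20.2% of all genes. Lgmn, legumain, which cleaves procathepsins, fell from 81 expected counts to 12 and 21, with log2 ratios of -2.78 (-3.79 to -1.90) and -1.85 (-2.62 to -1.14). Ap1b1, a subunit of the adaptor that packs mannose 6-phosphate receptors into vesicles, fell from 1465 counts to 294 and 334. Of the 4 genes of TFEB and its relatives, 0 were called in TR1 or TR9 by the Poisson test. Tfe3 had log2 ratios of -0.65 and -0.88, and Tfec of 0.24 and 0.54.

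Among the other lysosomal genes, calls went both ways. Of 46 other soluble hydrolases and activators, 10 were called higher and 5 lower in TR1, with a median log2 ratio of 0.11, and 12 higher and 7 lower in TR9, with a median of 0.38. The share called was 32.6% in TR1 and 41.3% in TR9, beside 21.1% and 20.2% of all genes. The medians of all genes were -0.29 and -0.12. Lyz2, lysozyme, rose from 124.49 FPKM to 977.69 and 675.74. Sgsh, heparan N-sulfatase, had 76, 0 and 2 expected counts in the control, TR1 and TR9 libraries. Against a floor of 3 counts, the level in TR1 was at least 25.7-fold lower, and its log2 ratio was -5.14 (-8.21 to -3.24) in TR9. Of 28 membrane proteins, 3 were called higher and 2 lower in TR1. In TR9, where 27 of them were tested, 5 were called higher and 1 lower. The share called was 17.9% in TR1 and 22.2% in TR9, near that of all genes. Cd63 had log2 ratios of 2.28 and 2.38, and Cd68, macrosialin, of 2.88 and 1.44. Of 20 subunits of the proton pump that acidifies lysosomes, 2 were called higher and 1 lower in TR1 and in TR9. That is 15% in each, below the share of all genes. Atp6ap2, an accessory subunit, had log2 ratios of 1.13 and 1.19, and Tcirg1 of 0.80, not called, and 1.28.

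**Figure D4:**
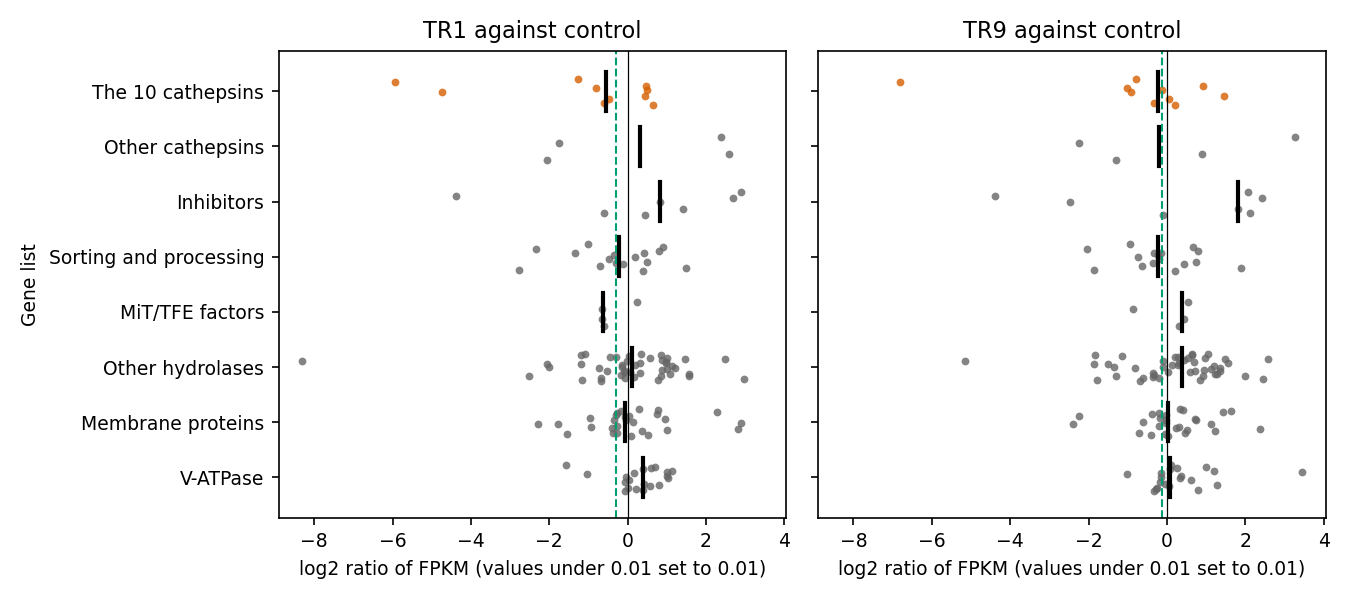
Log2 ratios of FPKM against control of the 10 cathepsins (orange) and of the 7 lists of related genes (grey), 1 point per gene, with the median of each list as a black bar and the median of all genes as a green dashed line. Values under 0.01 FPKM were set to 0.01, so the point of Sgsh in TR1, at 0 counts, is set by that floor. The medians of the cathepsins, -0.54 and -0.22, lie below those of the hydrolases, 0.11 and 0.38. Not every list lies clearly above them: TFEB and its relatives are lower in TR1, at -0.63 (0.38 in TR9). The sorting list in TR9, at -0.22, has almost the same median as the cathepsins.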

How the data were processed

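Total RNA of 3 libraries had been sequenced on an Illumina HiSeq. After filtering, the authors used BWA and Bowtie for mapping and RSEM for gene levels (versions not given in the sources used here). The submitters' processing notes name the build mm9. The authors deposited, per NCBI Gene ID, the expected count, without normalization, the FPKM, scaled for transcript length and library total, and the transcript length, which was copied as deposited. Of 16742 IDs, 16698 had a symbol in the RefSeq gene table of GRCm38.p6. Coordinates are those of GENCODE M21 and promoters those of RefSeq, both GRCm38, since the deposited files hold none. Genes absent from a file were set to 0 there.

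After rounding of expected counts, pairs of libraries were compared gene by gene with an exact conditional Poisson test (two-sided, scipy 1.17.1) with Benjamini-Hochberg adjustment over all genes listed in either, at the thresholds of the study's methods. FPKM under 0.01 were set to 0.01 for log2 ratios. Such a test compares libraries, not conditions. Log2 intervals are exact (Clopper-Pearson) at 95%. A fold against 0 counts was computed against 3 counts, which are 0.538 to 0.585 ppm of a library. The steps were tested on simulated data. The genes and lists were chosen with earlier results of these data known. The text names all 10 genes, of each list the 2 genes with at least 50 counts in a library and the largest mean change against control, and for each cathepsin with at least 100 counts in every library the 2 genes with the nearest pair of log2 ratios against control (Euclidean distance). Marker genes are named where set beside a cathepsin or a label. Some genes that these rules select are not reported here. Alternatives were TMM (edgeR 4.0.16, R 4.3.3), median-of-ratios and TPM-like scaling, totals without the 100 most abundant genes, CPM, a pseudocount of 1 FPKM, minimums of 10 counts or 1 FPKM, a false discovery rate of 0.05, a log2 ratio of at least 2, the fold alone, and the exact test of edgeR at a biological coefficient of variation (BCV) assumed to be 0.2 or 0.4.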

Additional observations from a re-analysis of the deposited data

Results flagged for a closer look

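Ctsd and Ctsz had log2 ratios of opposite sign in TR1 and TR9 against control, but were near the control level in TR9. The log2 ratio of Ctsd against control was -0.47 in TR1 but 0.06 in TR9, and TR9 exceeded TR1 by 0.53. That of Ctsz was 0.49 in TR1 but -0.12 in TR9, and the value of TR9 against TR1 was -0.60. With 1 library per leukemia the difference between the lines was not tested over mice, and for both genes the interval of TR9 against control held 0. With TPM-like scaling, Ctsd was below control in both, at -0.70 in TR1 and -0.052 in TR9.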

How the results depend on the processing

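No paired analysis was possible because each condition has 1 library, and no replicate could be left out. The 10 log2 ratios of each comparison were recomputed under 6 settings, and 168 of 180 values kept their direction and their call or lack of one. Ctsd in TR9 against control turned to -0.052 with TPM-like scaling, and the other 11 kept their direction but gained or lost a call. The scalings moved the median log2 ratio of all genes in TR1 from -0.29 to -0.04 with TMM and -0.52 with TPM-like scaling. Against the 3 genes called in TR1, 4 were called with TPM-like scaling, which added Ctsb, 2 without Ctss at a log2 ratio of at least 2 or an assumed BCV of 0.2, and 1 at an assumed BCV of 0.4. Against the 3 called in TR9, 1 was called at a log2 ratio of at least 2 and at an assumed BCV of 0.2 or 0.4, in each case Ctse. With TMM or median-of-ratios scaling the count stayed at 3, but 2, Ctsl and Ctso, were higher and 1, Ctse, lower. With totals without the 100 most abundant genes or a pseudocount of 1 FPKM, 2 were called, Ctse lower and Ctso higher. In TR9 against TR1, Ctso was the 1 gene called. There 0 were called with TMM, median-of-ratios scaling, totals without the 100 most abundant genes, a pseudocount of 1 FPKM, a log2 ratio of at least 2, or an assumed BCV of 0.2 or 0.4, and 2, Ctso and Ctsf, were called at a false discovery rate of 0.05 or with the fold alone. With a BCV of 0.2 in place of counting error alone, the share of all genes called was 10.1% in TR1, 9.49% in TR9 and 1.80% in TR9 against TR1. Counts of 1 to 42 limit what can be said of Ctsf and of Ctse within the leukemias.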

Other observations

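The inhibitor list held a pair of serpin genes that separated the TR libraries, singled out after their values were seen. Serpina3g, whose product can inhibit cysteine cathepsins, had 143.47, 260.14 and 24 expected counts in the control, TR1 and TR9 libraries, and the log2 ratio between the leukemias, TR9 against TR1, was -3.31 (-3.98 to -2.71). Serpinb6a had 91, 61 and 361.96 counts, with a log2 ratio of 2.73 (2.33 to 3.14). Both belong to clusters of similar genes. Serpina3g in control and TR1 and Serpinb6a in TR9 had counts that were not whole, which RSEM gives where reads match several genes, so the values are uncertain.

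Of the sorting genes, Sort1, which encodes sortilin, a carrier of lysosomal proteins, rose from 956 counts in control to 2736 in TR1 and 3342 in TR9. Psap, prosaposin, which sortilin carries, had 2513, 1004 and 2110 counts, and was higher in TR9 than in TR1 by a log2 ratio of 1.18 (1.08 to 1.29). Ctsw, cathepsin W of lymphocytes, had 8, 49 and 14 counts. These genes were also singled out after their values were seen.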
